A study of Mus musculus with 12 samples.

Results

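The genes described here are Il12a, Il12b, Il23a, Il23r, Ifng, Il17a, Il21, Il22, Cd4 and Ccr4, which encode the chains of the cytokines IL-12 and IL-23, a receptor chain of IL-23, cytokines of T helper and other lymphocytes, and a pair of T cell surface proteins. They were chosen by gene symbol, and all 10 were found among the 248 genes tested. Their mRNA was measured in blood monocytes (MNCs) and in Kupffer cells (KCs), the macrophages that reside in liver sinusoids, by the nanostring approach, in which colour-coded reporter probes on each mRNA are counted one by one without amplification. The comparison asked how the inflammation-related mRNA of the liver macrophages differed from that of the circulating cells.

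There were 6 MNC samples and 6 KC samples, all from Balb/C mice given no treatment, with the age not given in the sources used here. Each sample was a pool of sorted cells, from 5 mice by the sample labels and from 4 to 5 by the methods, and each was measured in its own lane. Cells of both groups were collected with magnetic beads against the macrophage surface protein F4/80, from blood after a density gradient and from liver after collagenase digestion and a density gradient. Pooling removes the differences between single mice, and a sort on 1 marker can leave other cells in the sample. The gene of F4/80 itself was not analysed here. In such bulk samples, fewer cells of a type and less RNA per cell cannot be told apart.

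IL-12 is a pair of chains, an alpha chain encoded by Il12a and a beta chain encoded by Il12b. IL-23 joins the same beta chain to a chain of its own, encoded by Il23a. Both are classically secreted by macrophages and dendritic cells. IL-12 drives T and NK cells to make interferon gamma (Ifng), whereas IL-23, through a receptor that contains Il23r, acts on lymphocytes that make IL-17A (Il17a) and IL-22 (Il22). In the liver, NK cells, NKT cells, gamma delta T cells and other lymphocytes sit in the sinusoids beside the Kupffer cells and are known sources of these cytokines.

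All values are normalized counts, scaled by the authors with 1 factor per lane. The background of a lane was its highest negative control probe, and a gene at or under it is called at background here. Genes under it carry that control's count, which had not been multiplied by the factor, whereas a gene with exactly that count is listed multiplied. The listed background ran from 5 to 27 in MNCs, lowest in MNC sample 2, and from 7 to 14 in KCs. Multiplied by the factor it would run from 5.63 to 15.7 in MNCs and from 11.7 to 30.4 in KCs, so a gene measured in neither group has no meaningful difference. The lanes counted 162943 to 348248 molecules above background in MNCs and 84387 to 145653 in KCs, over the tested and housekeeping genes. Of the 248 genes, 160 (64.5%) were above background in all 12 samples, against 2 of the 10 genes described here, Il12a and Cd4.

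Relative to MNCs, KCs held more Ifng, Il17a and Ccr4 mRNA and less Il12a mRNA, at an adjusted p under 0.05 by limma over all 248 genes. The other 6 genes did not pass. Those 3 higher genes of 10 stand beside 35.1% of all genes tested, and the 1 lower gene beside 21.4%. The medians of the log2 fold changes were 0.27 over the 10 genes and 0.05 over all genes tested. The 10 include Il12b, Il23a and Il21, whose values are nearly all lane backgrounds. Over the 7 genes above background in more than 1 sample, several of them mainly in KCs, the median was 0.63.

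**Figure D1:**
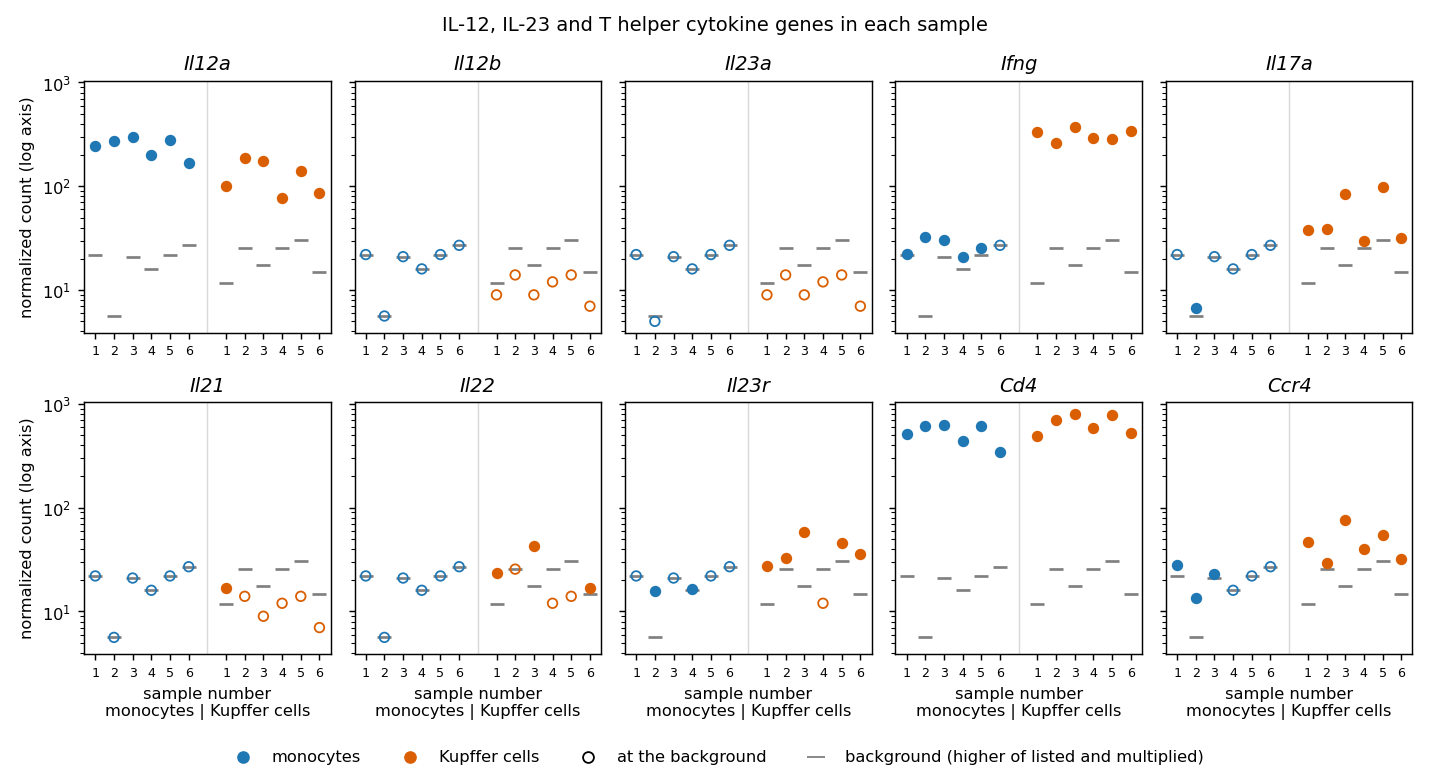
Normalized count (log axis) of each of the 10 genes in the 6 monocyte and 6 Kupffer cell samples, with open points for samples at background and grey dashes for each lane's background, the larger of its listed and its multiplied value. Ifng separates the groups most widely, Il12a is lower in Kupffer cells with overlapping groups, and Il12b and Il23a show open points throughout.

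Of the IL-12 and IL-23 chains, only that of Il12a was measured above background. Its normalized count ran from 167 to 298 in MNCs (median 259) and from 76.5 to 186 in KCs (median 119.8). All but 1 of the MNC samples lay above every KC sample, the exception being MNC sample 6. The mean was 243 ± 50.8 (SD, n = 6) in MNCs and 127 ± 46.7 (SD, n = 6) in KCs. The log2 fold change of KCs over MNCs was -0.98 (SE 0.24, 95% CI -1.50 to -0.46), a 1.97-fold lower level with a limma adjusted p of 0.00337. The underlying molecules numbered 241 to 472 per MNC sample and 36 to 102 per KC sample, which was 11.2 to 48.2 and 3 to 10 times the highest negative control of the lane.

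Il12b, the beta chain that both cytokines need, was at background in all 12 samples, and so was Il23a, the chain particular to IL-23. The listed values of Il12b, 5.63 to 27 in MNCs and 7 to 14 in KCs, are the backgrounds of the lanes themselves, multiplied in MNC sample 2, where its count equalled the control. No fold change is given for either gene, and a level under these backgrounds was not detectable at this depth. In all, 17 of the 248 genes were at background in all 12 samples.

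Ifng, the cytokine that activates macrophages and defines the type 1 helper response, differed most of the 10 genes. It ran from 20.7 to 32.7 in MNCs (median 26.2), where 5 of 6 samples were above background and MNC sample 6 was at it, and from 263 to 374 in KCs (median 311). The lowest KC sample was thus far above the highest MNC sample. The mean was 26.4 ± 4.61 (SD, n = 6) in MNCs and 314 ± 41.1 (SD, n = 6) in KCs. The log2 fold change was 3.53 (SE 0.14, 95% CI 3.22 to 3.84), 11.5-fold, with a limma adjusted p of 2.07e-10. KC samples counted 131 to 253 molecules of Ifng, 9.36 to 28.1 times the highest negative control, and the 5 MNC samples 29 to 45, or 1.41 to 5.80 times.

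Il17a, the cytokine by which IL-17-making lymphocytes call in neutrophils, was above background in 6 of 6 KC samples and in MNC sample 2 alone, at 6 molecules. It ran from 6.75 to 27 in MNCs, of which 5 values were the lane's background, and from 29.8 to 97.8 in KCs (median 38.1). The groups did not overlap, and KC samples 3 and 5 lay well over the other 4. The means were 19.1 ± 7.0 (SD, n = 6) and 53.2 ± 29.6 (SD, n = 6), a log2 fold change of 1.37 (SE 0.36, limma adjusted p = 0.00561). The molecules behind the KC values numbered 14 to 45, only 1.17 to 4.78 times the highest negative control. With every value under 30.4, the highest multiplied background of any lane, raised to it, the log2 fold change was 0.63 and the limma adjusted p was 0.0910, so the call was lost.

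Il21 and Il22, which act on B cells and on epithelial cells and hepatocytes, were at background in all 6 MNC samples. Il21 was above it in KC sample 1 alone, at 17.0 (13 molecules against a highest negative control of 9). Il22 was above it in KC samples 1, 3 and 6, at 23.5, 42.9 and 16.9. Its log2 fold change was 0.24 (SE 0.36), with a limma adjusted p of 0.559. Il22 has the near-identical copy Iltifb, which lies between Il22 and Ifng in the RefSeq annotation of GRCm38.p6, and whether the probe tells the copies apart is not given in the sources used here.

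The DNA just before the start of Ifng and Il17a, the called cytokine genes that were higher in KCs, and of Il12a, the one that was lower, is shown to set the 3 genes side by side. The sequences are the 250 bases before the start in RefSeq's GRCm38.p6, written 5′ to 3′, and capitals mark TATAAA and TGANTCA, both searched on both strands.
Ifng, chr10:118440796-118441045, + strand: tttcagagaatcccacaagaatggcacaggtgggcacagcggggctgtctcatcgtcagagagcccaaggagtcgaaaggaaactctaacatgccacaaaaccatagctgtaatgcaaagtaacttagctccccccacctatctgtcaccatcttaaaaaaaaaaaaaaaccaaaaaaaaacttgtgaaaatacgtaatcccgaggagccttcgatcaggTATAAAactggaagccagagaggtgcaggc
Il17a, chr1:20730655-20730904, + strand: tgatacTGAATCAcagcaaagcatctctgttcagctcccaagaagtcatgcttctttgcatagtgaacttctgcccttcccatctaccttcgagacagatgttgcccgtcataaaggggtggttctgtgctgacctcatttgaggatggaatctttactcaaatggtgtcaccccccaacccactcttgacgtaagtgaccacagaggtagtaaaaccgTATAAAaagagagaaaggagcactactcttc
Il12a, chr3:68690394-68690643, + strand: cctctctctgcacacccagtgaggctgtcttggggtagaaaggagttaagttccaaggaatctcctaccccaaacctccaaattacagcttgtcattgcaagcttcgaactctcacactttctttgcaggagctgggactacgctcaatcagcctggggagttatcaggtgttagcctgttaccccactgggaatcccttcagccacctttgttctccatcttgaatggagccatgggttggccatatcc
TATAAA was found 30 bases before the start of Ifng and 31 bases before that of Il17a, and 12.4% of the 32851 promoters in the table hold it. TGANTCA, held by 6.75% of them, was found 244 bases before the start of Il17a. GGAAA, also searched and not marked, is held by 55.6% of them and was found 172 bases before the start of Ifng. Neither TATAAA nor TGANTCA was found in the stretch shown for Il12a, nor in that of its other RefSeq start. A match describes the letters and is not a binding site.

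Il23r, the chain that makes a lymphocyte responsive to IL-23, was above background in 2 of 6 MNC samples, at 15.8 and 16.4, and in 5 of 6 KC samples. It ran from 12 to 58.5 in KCs (median 34.4), KC sample 4 being the one at background. The log2 fold change of 0.63 (SE 0.30) had a limma adjusted p of 0.0887. Without KC sample 4 it was 0.89, with a limma adjusted p of 0.00258. With all samples kept and the background multiplied by the lane factor, it was 1.22 (limma adjusted p = 5.87e-05). The call thus depended on that sample and on the treatment of the background.

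Cd4, the co-receptor of helper T cells, which some mouse macrophages and dendritic cells also carry, was well above background throughout. It ran from 340 to 627 in MNCs (median 560.2) and from 485 to 801 in KCs (median 636). Groups overlapped broadly. The means were 524 ± 116 (SD, n = 6) and 644 ± 135 (SD, n = 6), and the log2 fold change of 0.30 (SE 0.19, 95% CI -0.11 to 0.71) did not pass, with a limma adjusted p of 0.166.

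Ccr4, a chemokine receptor of type 2 helper, regulatory and skin-homing T cells, was above background in 3 of 6 MNC samples and in 6 of 6 KC samples. It ran from 13.5 to 27.9 in MNCs (median 22.4) and from 29.2 to 76.0 in KCs (median 43.7). The lowest KC sample lay just above the highest MNC sample. The means were 21.5 ± 5.78 (SD, n = 6) and 46.4 ± 17.2 (SD, n = 6), a log2 fold change of 1.04 (SE 0.25, 95% CI 0.51 to 1.57) with a limma adjusted p of 0.00262. KC samples counted 15 to 39 molecules, 1.14 to 4.33 times the highest negative control. The 3 MNC samples above background counted 12 to 39, or 1.62 to 2.4 times, so the molecules before scaling by the lane factor overlapped. The call was lost after quantile normalization, where the log2 fold change was 0.58 and the limma adjusted p 0.143.

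**Figure D2:**
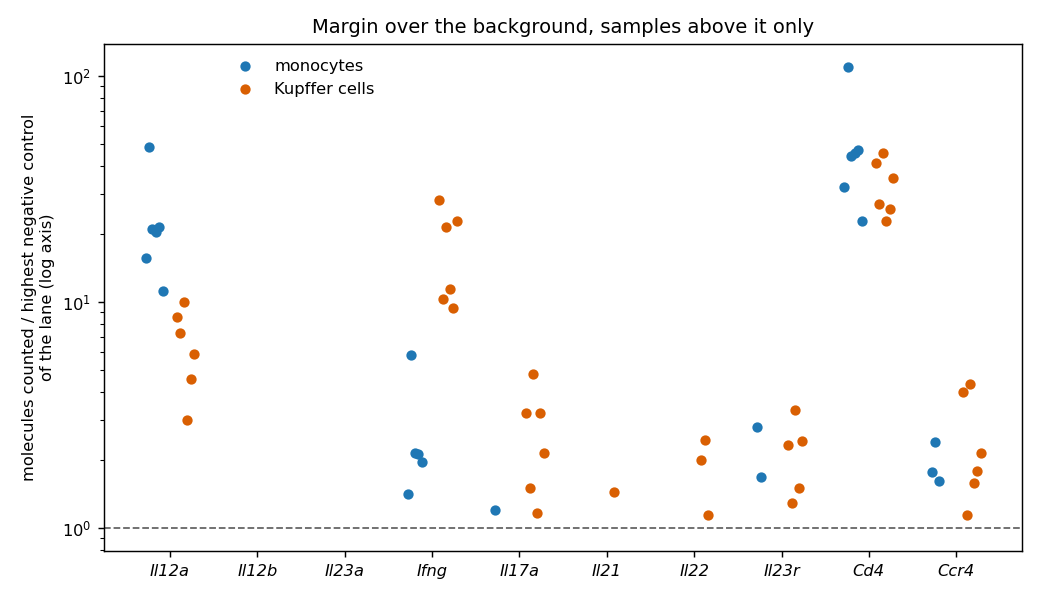
Molecules counted divided by the lane's highest negative control (log axis), for samples above background only, 1 point per sample. Cd4 stands far over the line at 1 in both groups, Il12a in monocytes (11.2 to 48.2 times) and Ifng in Kupffer cells (9.36 to 28.1 times), and Il12a in Kupffer cells lies at 3 to 10 times, while Il17a, Il21, Il22, Il23r and Ccr4 stay under 5 times; Il12b and Il23a have no point.

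The groups did not overlap for 3 of the 10 genes, Ifng, Il17a and Ccr4, all higher in KCs, beside 25.8% of all genes tested. With the common background of 30.4, Ifng and Ccr4 were called higher, beside 35.5% of all genes, and Il12a lower, beside 19.4%. Ccr4 then had a log2 fold change of 0.53 and a limma adjusted p of 0.0395. The treatment of the background thus moved the fold changes of Il17a and Ccr4, though Ccr4 stayed called under all 3 treatments. It also moved those of Il23r (0.31 with the common and 1.22 with the multiplied background) and Il22 (0.08 and 1.12). Of the 3 treatments, only the multiplied background gave a call for Il23r and Il22. The plot of fold changes by background shows each gene under the 3 treatments.

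**Figure D3:**
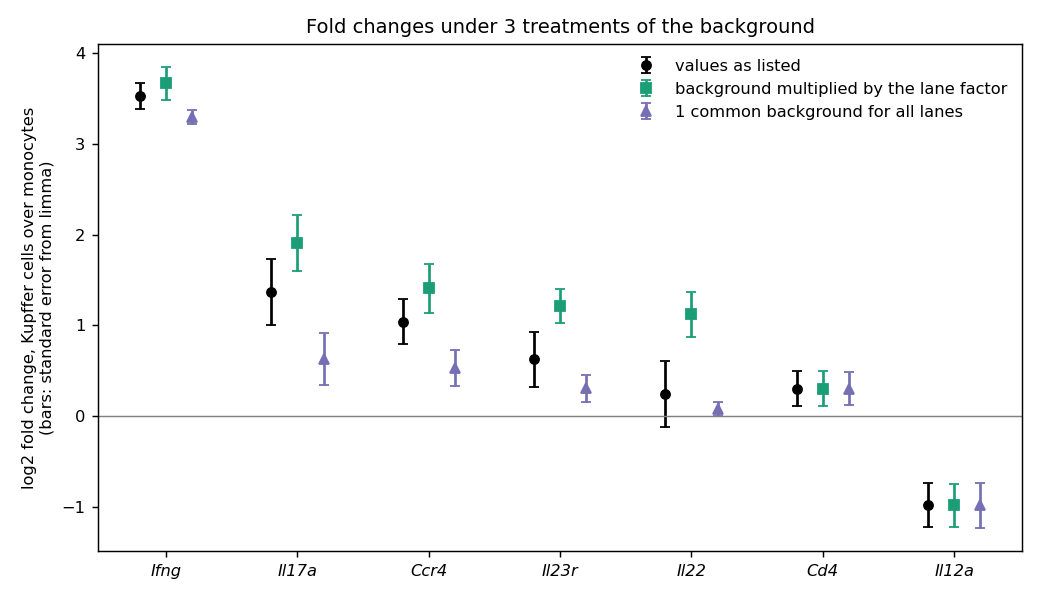
Log2 fold change of Kupffer cells over monocytes under 3 treatments of the background (as listed, multiplied by the lane factor, and a common background of 30.4), for the genes above background in more than 1 sample, with error bars of 1 SE. Il12a stays lower and Ifng higher throughout, whereas Il17a falls from 1.90 with the multiplied background to 0.63 with the common one.

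Ratios within a sample ask whether the lymphocyte genes moved apart from Cd4, and between values above background they hardly depend on the lane factor. Of 6 pairs of genes, 3 could be tested, and the 3 that contain Il12b or Il23a could not, since those genes were never above background. A pair was tested if each gene was above background in all 6 samples of at least 1 group. Ifng, Il17a and Ccr4 met that rule through KCs alone, where they were higher, so these tests add no separate support to the limma calls of these genes. The log2 ratio of Ifng to Cd4 ran from -4.54 to -3.61 in MNCs and from -1.46 to -0.55 in KCs. It was higher in KCs by 3.23, with no overlap (exact two-sided permutation test, p = 0.00216, the smallest it allows, adjusted p = 0.00649). A value at background entered these ratios at whichever was higher, its listed or its multiplied background, which is an upper limit of the gene's level. In MNCs that was so for 1 of 6 values of Ifng, 3 of 6 of Ccr4 and 5 of 6 of Il17a, whose remaining sample had 6 molecules. The Il17a ratio in MNCs is therefore mostly that of the lane background to Cd4. Against these limits, the ratio to Cd4 in KCs was higher by 1.07 for Il17a (exact permutation p = 0.0216, adjusted p = 0.0325) and by 0.74 for Ccr4 (exact permutation p = 0.0455, adjusted p = 0.0455), and neither is a measured size of the difference. The Il17a ratio no longer passed without MNC sample 2 or 3 or KC sample 1, 3 or 5 (adjusted p up to 0.0682), and the Ccr4 ratio without MNC sample 2, 3, 4 or 5 or KC sample 1, 3, 4, 5 or 6 (adjusted p up to 0.0823).

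Across samples of the same group, Il12a and Cd4 varied together in MNCs. Pearson's r was 0.985 (exact permutation p = 0.00278, adjusted p = 0.0139 over the 5 relations computed) and Spearman's rho 0.943 (exact p = 0.0167, adjusted p = 0.0833), over 6 samples. Without the 2 samples farthest from the median of Cd4, r was 0.912. In KCs r was 0.781 (exact permutation p = 0.106, adjusted p = 0.176) and rho 0.600 (exact p = 0.242, adjusted p = 0.403), with r = 0.773 without the 2 farthest samples. The points share the lane and its factor. The housekeeping gene Gusb, which is part of the factor, had r = -0.986 with Il12a and -0.975 with Cd4 in MNCs and 0.708 and 0.824 in KCs, and its part in the result was not tested.

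Of the genes that were higher in KCs, Il17a had an r of 0.823 with Cd4 across the 6 KC samples (exact permutation p = 0.0639, adjusted p = 0.160) and a rho of 0.714 (exact p = 0.136, adjusted p = 0.340). Ccr4 had r = 0.508 (exact permutation p = 0.294, adjusted p = 0.368) and rho 0.486 (exact p = 0.356, adjusted p = 0.444). For Ifng r was -0.12 (exact permutation p = 0.807, adjusted p = 0.807) and rho -0.0286 (exact p = 1.0, adjusted p = 1.0). Without the 2 samples farthest from the median of Cd4, r was 0.853 for Il17a, 0.548 for Ccr4 and -0.75 for Ifng. None of these 3 relations passed.

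**Figure D4:**
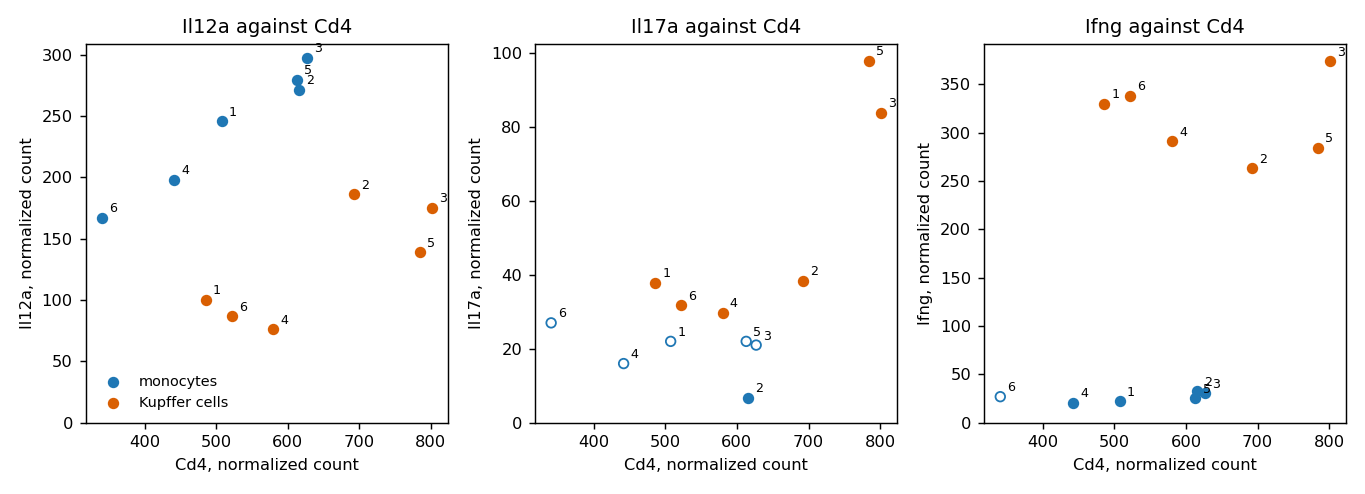
Normalized counts of Il12a, Il17a and Ifng against the normalized count of Cd4, 1 point per sample numbered by sample, with open points where the gene was at background. Il12a rises with Cd4 within monocytes (r = 0.985), and Ifng lies between 263 and 374 in Kupffer cells at every level of Cd4.

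The genes most like Il12a over the 12 samples, of 193 compared by Pearson's r of log2 values, were H2-Eb1 (r = 0.970), a chain of the class II antigen-presenting complex, Grb2 (r = 0.956), an adaptor of receptor signalling, and Rac1 (r = 0.910), a small GTPase. Within MNCs alone these were 0.909, 0.98 and 0.855, and within KCs 0.968, 0.968 and 0.750. The genes most like Ifng were Ccl4 (r = 0.983), a chemokine, and the complement components C2 (r = 0.980) and C3 (r = 0.974). Within MNCs these were 0.335, -0.338 and -0.491, and within KCs 0.551, -0.644 and -0.744. The likeness of Ifng to C2 and C3 thus held between the groups and not within them.

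Of a list of 21 genes of the IL-12 and interferon gamma pathway, 13 were on the panel, and 10 of these are not among the genes described above. Of those 10, 9 were higher in KCs without overlap, beside 25.8% of all genes tested, on a list chosen with earlier results of these data known. Cd40, the receptor through which T cells activate macrophages, was not called, at a log2 fold change of 0.06 (limma adjusted p = 0.791). The median log2 fold change of the 10 was 0.88. Il18, a cytokine that acts with IL-12, had a log2 fold change of 0.59 (limma adjusted p = 0.000646), and Irf1, an interferon-responsive transcription factor, had 0.80 (adjusted p = 0.000126). Iigp1, an interferon-induced GTPase, had 3.12 (adjusted p = 1.11e-06), and Cxcl10, an interferon-induced chemokine, 2.24 (adjusted p = 0.000109).

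Of 19 genes of the IL-23 and IL-17 pathway, 16 were on the panel, 10 of them not described above. Stat3, the transcription factor downstream of IL-23, was higher by 0.33 on the log2 scale (limma adjusted p = 0.0246) and Csf2, the cytokine GM-CSF, by 1.23 (adjusted p = 0.00564), with 4 KC samples and no MNC sample above background. Il6, an inflammatory cytokine, and Cxcl1, a neutrophil chemokine, were lower, with log2 fold changes of -1.99 (limma adjusted p = 7.88e-05) and -4.69 (adjusted p = 2.91e-06). The other 6 were not called. Another list held 16 cytokines of lymphocytes and other cells, and shared Csf2 and Cd40lg with the lists above. Of the 16, 5 were higher in KCs: Tnfsf14 by 1.77, Csf2, Cd40lg by 0.96, Fasl by 0.83 and Lta by 0.65 on the log2 scale (limma adjusted p from 7.34e-07 to 0.0182). Il13 was called lower, at -0.76 (limma adjusted p = 0.0183), but was above background in only 1 MNC sample, and with the common background its adjusted p was 1. The other 10 were not called. Over all genes tested, 35.1% were called higher and 21.4% lower.

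**Figure D5:**
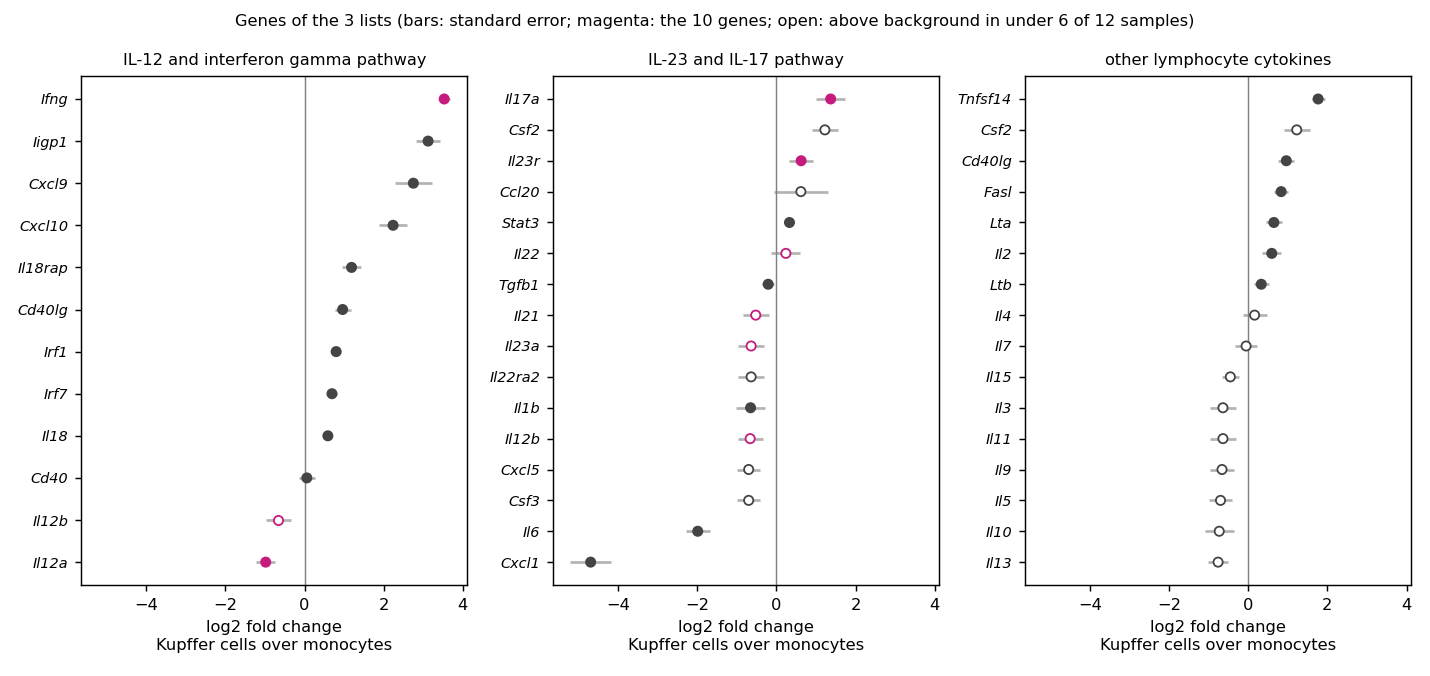
Log2 fold change of Kupffer cells over monocytes for the genes of the 3 cytokine and pathway lists (1 listed gene is left out), with bars of 1 SE, the 10 genes in magenta, and open points for genes above background in under 6 of the 12 samples. The called genes shown of the interferon gamma list outside the 10 genes lie above 0, those of the IL-23 and IL-17 list fall on both sides, and the open points near -0.66 are genes at background in most or all samples.

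Genes of other cell types also differed between the groups. Of 23 T and NK cell markers, 12 were on the panel, with 8 higher in KCs, beside 35.1% of all genes tested. None was lower, and none was at background in all 12 samples. Of the 12, 4 are genes described above. Among the 8 others, Ccl5, a chemokine of T and NK cells, was higher by 1.69 on the log2 scale (limma adjusted p = 0.000854), and Il18rap, a chain of the IL-18 receptor, by 1.19 (adjusted p = 0.000619). Cd40lg, Fasl and Lta were higher too, and Il2, Ccr7 and Ltb did not pass. The summed level of those 8 ran from 5336 to 10363 in MNCs and from 10528 to 37432 in KCs. Ccl5 alone averaged 3906 in MNCs (median 4228) and 14244 in KCs (median 9898, highest sample 33369). Cd3e, Trac and Cd8a, which define T cells, were not analysed here. The part of T and NK cells in the levels of Ifng, Il17a, Il23r and Ccr4 was not tested.

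The labelled cell types were only partly covered by their markers. Of 9 Kupffer cell markers, 3 were on the panel, and in KCs Cd163, a scavenger receptor of resident macrophages, was higher by 1.11 on the log2 scale (limma adjusted p = 0.00691) while the complement chains C1qa and C1qb were lower, at -2.17 (adjusted p = 3.24e-05) and -1.82 (adjusted p = 0.000127). Of 8 monocyte markers, 3 were on the panel: Itgb2 and Tyrobp were lower in KCs, at -1.73 (limma adjusted p = 4.59e-07) and -0.996 (adjusted p = 6.6e-05), and Ccr2 had a log2 fold change of -0.16 (limma adjusted p = 0.508). Of 11 hepatocyte markers, 9 genes of secreted plasma proteins were on the panel and all 9 were higher in KCs, with log2 fold changes of 4.22 to 7.24 and a summed level of 49.6 to 243 in MNCs and 4205 to 14595 in KCs. These genes were thus higher in KCs, as was Ifng, whereas Il12a was lower. Over all genes tested, 35.1% were called higher. The part of hepatocyte RNA in the differences was not tested. Of 7 B cell markers only Ltb was on the panel, and of 5 liver endothelial markers only Flt1, a receptor of vascular growth factors, which was higher by 2.09 (limma adjusted p = 2.22e-05). Of 9 granulocyte and mast cell markers, 5 were on the panel, of which Ccr3 was higher and Alox15 was lower. Il13 was called lower too, but its values were lane backgrounds in all but 1 MNC sample, and the call was lost with the common background.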

How the data were processed

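The authors counted reporter molecules on the nCounter Mouse Inflammation V2 panel and normalized them in nSolver 4.0 with positive controls and housekeeping genes. The deposited values are that normalized signal, with genes under the lane's highest negative control listed at its count. Dividing by the lane factor, of which all values above background were whole multiples within 0.02 in 12 of 12 lanes, gave the molecules. No count model was used, since listed backgrounds had not been multiplied.

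Log2(value + 1) was compared between the groups of 6 with limma 3.58.1 in R 4.3.3 over 248 genes (two-sided; adjusted by Benjamini-Hochberg; threshold 0.05); housekeeping and control probes were left out. Each fold is 2 raised to the log2 fold change. Single ratios used exact permutation tests (scipy 1.17.1, Python 3.11.15). The scripts were tested on simulated data. Replicates were separate pools, and nothing says that samples with the same number share animals. The members and gene lists were chosen with earlier results of these data known. Named are the 10 genes and the 3 genes most alike in pattern to Il12a and to Ifng. Some, not all, of the list genes above background in all samples or without overlap are named too. Other names were chosen after their values were seen. All 10 symbols matched RefSeq (GRCm38.p6), used for names, neighbours and the printed sequences. Hprt and Tubb5 were not analysed here, and 1 gene of the 3 cytokine and pathway lists is counted but reported singly in neither text nor figure here.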

Additional observations from a re-analysis of the deposited data

How the results depend on the processing

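The call of Il12a (-1.40 to -0.85 on the log2 scale) and that of Ifng (3.01 to 3.67) held under all 22 alternatives, and Cd4 (0.00 to 0.41) passed under none. The 4 housekeeping genes of the data themselves differed between the groups without overlap. Gusb was lower in KCs, at 244 to 409 against 764 to 1178 in MNCs. Gapdh was higher, at 2159 to 4159 against 1631 to 1767, as were Cltc and Pgk1. Among the alternatives, only Gapdh was left out of the scaling, and the part of the other housekeeping genes in these calls was not tested. With the background multiplied by the factor, 8 of the 10 genes were called higher in place of 3, among them Il12b and Il23a, which were never above background, and 140 of all genes in place of 87. Rescaled to the median gene, 3 were called lower in place of 1 (Il12a, Il12b and Il23a) and 108 of all genes in place of 53. Without monocyte sample 2, the lane with the lowest background, 4 were called lower (adding Il12b, Il23a and Il21), and 86 of all genes. Leaving out each sample in turn gave 3 to 4 of the 10 genes higher and 1 to 4 lower, and 76 to 88 of all genes higher and 46 to 86 lower. The fold change of Il22 reversed to -0.0072 when rescaled to the median and to -0.052 without monocyte sample 2 (-0.052 to 0.386 over the samples left out in turn), and with the multiplied background it was 1.12. Il23r was called with the multiplied background (1.22, adjusted p = 5.87e-05). With a pseudocount of 10, the ratio of Il17a to Cd4 differed by 0.74 (adjusted p = 0.0552) and that of Ccr4 to Cd4 by 0.51 (adjusted p = 0.0736) in exact permutation tests; leaving out each sample gave 0.76 to 1.30 and 0.57 to 0.93, and 3.13 to 3.35 for Ifng to Cd4, which was 2.85 with the pseudocount of 10. The cause of these shifts was not tested. Rescaling moved the median of all genes by -0.26 and the multiplied background by 0.53 on the log2 scale.

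With the replicate number as a block, 83 genes were called higher and 49 lower, with the same 4 of the 10 genes. The deviations of same-numbered samples correlated over 0.1 in 3 of 6 pairs (160 genes). Such correlations cannot decide whether same-numbered samples share animals, which is not known. Genes near the background, Il17a, Il21, Il22, Il23r and Ccr4, are limited by few molecules.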
